A study of Mus musculus with 4 samples.

Results

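The genes described here are 31 genes of cholesterol and fatty acid synthesis in mouse cells: the enzymes of the mevalonate and sterol pathway, the Srebp regulators, the sterol carrier Stard4, and the enzymes of fatty acid synthesis. They were chosen by name, and each was taken by the probe sets annotated to it alone. Of the 31 genes, 30 had at least 1 such probe set, 69 in all, among 18194 genes on the arrays, and Acat2 had none. Each gene is given by its probe set with the highest mean over the 4 arrays. Other probe sets are described for the members whose probe sets differ in sign and for some further members, not for all.

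The cells came from Rax::GFP mouse ESCs, which carry GFP as a reporter of Rax, a homeobox gene of the rostral forebrain. They were grown as floating aggregates by the SFEBq method in a chemically defined medium, so all samples shared the line, the medium and the age of the culture. At day 4.5 they were sorted by their GFP signal. The Rax::GFP+ cells are the rostral population and the Rax::GFP- cells hold the presumptive caudal region, and each group has 2 arrays of cells pooled from many aggregates. The values are log2 values made by RMA, and all differences are GFP- minus GFP+ on the log2 scale, so a difference of 1 is a 2-fold change.

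Rax itself was at 10.70 and 10.86 on the GFP+ arrays and 8.58 and 8.88 on the GFP- arrays. The sort separated the regional markers, and the GFP- cells also carried markers of other cell types. Of 6 rostral forebrain markers, 5 were lower in GFP- cells, and of 7 measured caudal neural markers, 5 were higher. Of 9 pluripotency markers, 8 were higher in GFP- cells, with a mean log2 value over the list of 6.72 and 6.59 on the GFP+ arrays and 9.07 and 9.02 on the GFP- arrays. Of 12 endoderm markers, 9 were higher, with list means of 5.94 and 6.38 on the GFP+ arrays and 7.95 and 8.10 on the GFP- arrays. Of 7 pan-neural markers, 5 were lower, and of 7 measured mesoderm and neural crest markers, 2 were higher. Array medians lay between 5.84 and 5.89. In such bulk samples a difference in the share of a cell type and a difference in RNA per cell cannot be told apart. RMA equalizes the probe intensities of the arrays before they are summarized, so a change in total RNA is not seen.

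Cells make cholesterol from acetyl-CoA through mevalonate, isoprenoids, squalene and lanosterol, and they make fatty acids from citrate through acetyl-CoA, malonyl-CoA and the fatty acid synthase. Both branches are set by the Srebp transcription factors. Scap carries these from the endoplasmic reticulum for activation when sterols are low, and Insig proteins hold them back when sterols are high. In the early brain, sterols are needed for membranes and for Hedgehog signaling, whose ligand is modified by cholesterol.

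None of the 30 measured genes of cholesterol and fatty acid synthesis passed the test between the sorted cells. By limma's adjusted p under 0.05, 0 members rose and 0 fell from GFP+ to GFP- cells, while 5.4% of all genes were higher and 2.63% were lower. The lowest adjusted p among the members was 0.0682, for the sterol isomerase gene Ebp. At the level of probe sets, 0 of the 69 passed, beside 7.47% of all probe sets. Unadjusted p-values were under 0.05 for 4 members, 1 of them higher and 3 lower in GFP- cells, which is 4 of 30 beside 25.8% of all genes.

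The intervals around these differences were narrow. At the probe sets with the highest mean, the differences ran from -0.27 to 0.38. The 95% intervals of the 30 members there together spanned -0.53 to 0.59, so a 2-fold change in either direction lay outside each. For 28 of the 30, the interval lay within 0.5 of 0, as it did for 69.8% of all genes and for 78.7% of the 7429 genes with a mean log2 value of at least 8, the range in which all members lay. The median size of the difference, without its sign, was 0.07 for the members, 0.13 for all genes and 0.13 for those 7429 genes. Dimmer probe sets of Hmgcs1 (-2.77 to 0.43), Msmo1 (-1.67 to 0.74) and Elovl6 (-1.23 to -0.31) had 95% intervals that held a 2-fold fall. Bright second probe sets of Idi1 (-0.86 to -0.14) and Cyp51 (-0.77 to -0.02), among others, had intervals that reached beyond 0.5 from 0. The count of 28 therefore holds for the brightest probe sets only.

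**Figure D1:**
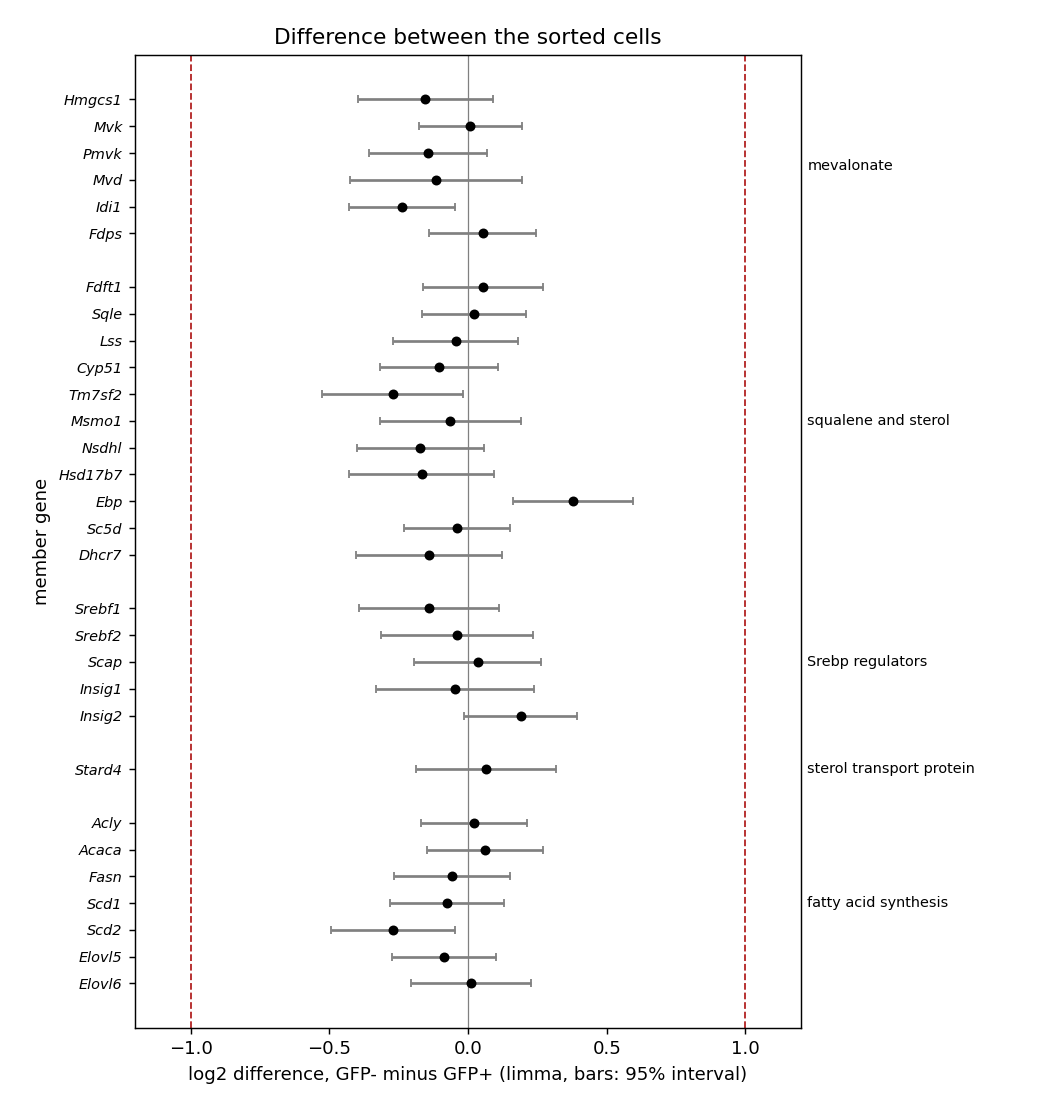
The 30 measured members are in rows (y axis) by pathway step, and the x axis gives the log2 difference, GFP- minus GFP+, of each gene, taken by its probe set with the highest mean. Points are limma estimates, bars are 95% intervals, and the dashed lines mark a 2-fold change, which none of the bars reaches.

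Of the 30 members, 19 had a negative and 11 a positive difference, with a median of -0.05. The median over all genes was 0.05, with 61.9% positive, and over the genes with a mean log2 value of at least 8 it was 0.01, with 52.9% positive. The members' median changed with single arrays. Leaving out GFP+ replicate 1 gave 0.000363, beside 0.03 for all genes, and leaving out GFP+ replicate 2 gave -0.11, beside 0.07. When arrays were centred on their medians, the members' median was -0.01 and the median of all genes also rose, to 0.09. The groups did not overlap for 16 members, beside 60.1% of all genes. Of these 16 members, 13 were lower and 3 higher in GFP- cells, compared with 3956 lower and 6981 higher among all genes, and 2486 lower and 2939 higher among the genes with a mean log2 value of at least 8. With 2 arrays a group, none of this is a test of the list.

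**Figure D2:**
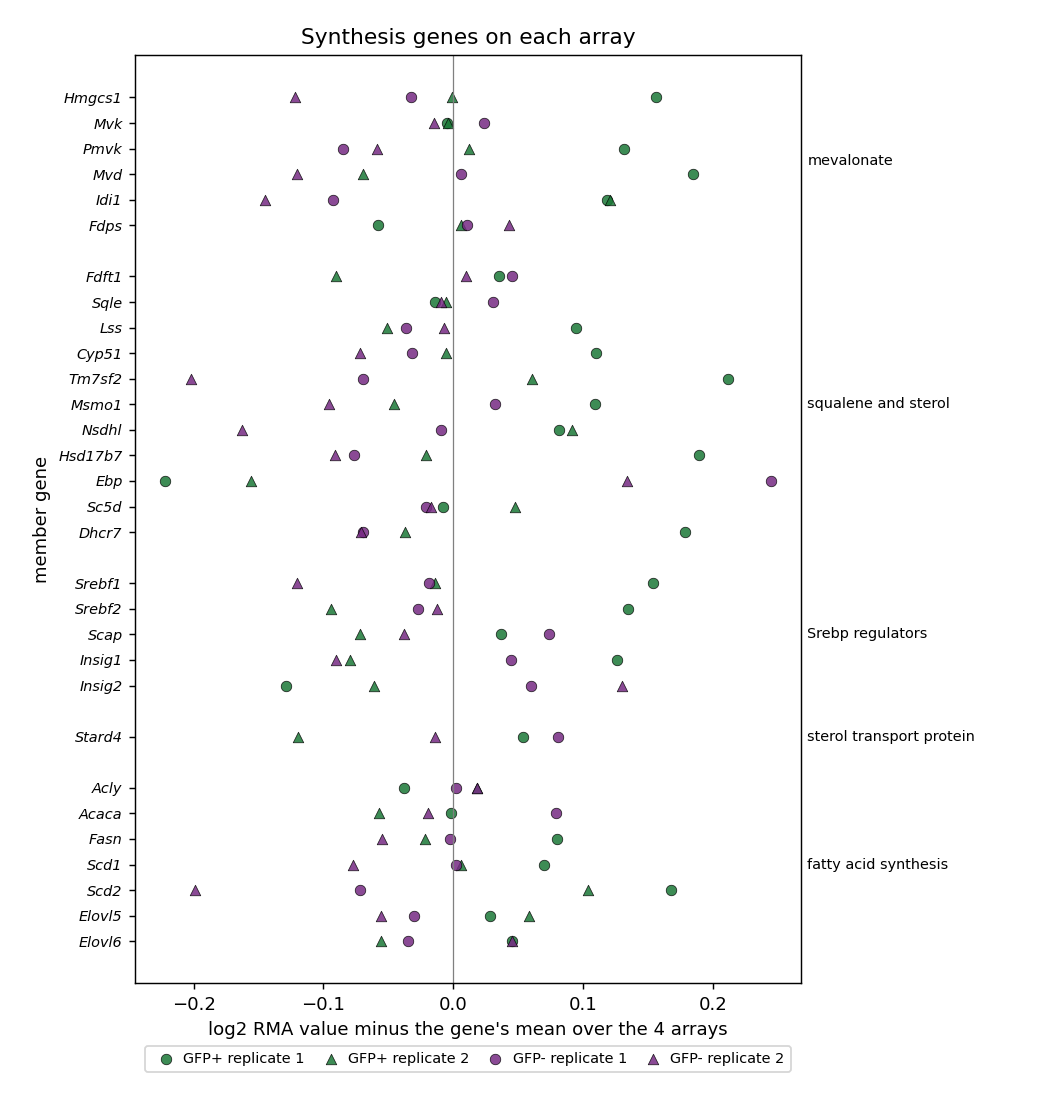
Log2 RMA value of each member on each array minus the gene's mean over the 4 arrays (x axis), with genes in rows (y axis) by pathway step. Green symbols are GFP+ and purple symbols GFP- arrays, circles replicate 1 and triangles replicate 2; the groups overlap for 14 genes and do not for 16.

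The promoters of 4 members are shown because these genes stand for the steps at issue: Hmgcs1 opens the mevalonate pathway among the measured members, Idi1 had the lowest p among the mevalonate genes, Ebp had the lowest p of all, and Fasn is the central enzyme of fatty acid synthesis. Each line gives the 150 bases just before the annotated start of the gene, on the gene's strand, from RefSeq (GRCm38.p6). Capitals mark TCACNCCAC, a form of the sterol regulatory element bound by Srebp, and the letters CCAAT and GGGCGG, on either strand.
Hmgcs1, chr13:119690201-119690350, plus strand: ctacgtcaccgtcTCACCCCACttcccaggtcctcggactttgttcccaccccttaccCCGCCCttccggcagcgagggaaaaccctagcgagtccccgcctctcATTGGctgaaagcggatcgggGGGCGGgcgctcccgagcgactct
Idi1, chr13:8885456-8885605, plus strand: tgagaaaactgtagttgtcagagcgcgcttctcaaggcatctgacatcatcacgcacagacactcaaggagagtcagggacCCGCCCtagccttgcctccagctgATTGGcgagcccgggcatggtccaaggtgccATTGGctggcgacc
Ebp, chrX:8193513-8193662, minus strand: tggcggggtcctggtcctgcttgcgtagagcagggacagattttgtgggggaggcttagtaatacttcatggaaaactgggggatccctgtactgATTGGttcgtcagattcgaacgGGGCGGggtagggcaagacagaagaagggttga
Fasn, chr11:120824548-120824697, minus strand: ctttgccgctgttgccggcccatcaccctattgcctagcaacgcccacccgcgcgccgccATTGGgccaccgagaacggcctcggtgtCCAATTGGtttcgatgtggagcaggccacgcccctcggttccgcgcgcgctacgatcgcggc

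A CCAAT box in one orientation or the other stood in each of these windows. In Fasn a pair of CCAAT matches on opposite strands overlap in the run of 8 capitals. Of the 31 members, 25 had a promoter sequence here, from 250 bases before to 50 after a start, Acat2 among them, and a gene with several starts was counted once if any of them held the motif. CCAAT was found for 21 of the 25 members and for 14 of 15 enzymes of the mevalonate and sterol steps, beside 41.1% of all genes with a promoter sequence (37.4% of all promoters). GGGCGG was found for 20 of the 25 and for 14 of the 15 enzymes, beside 38.2% of all genes (35.7% of promoters). TCACNCCAC was found for 1 member, Hmgcs1, beside 1.44% of all genes (1.24% of promoters), and the E-box CACGTG for 6 members, beside 8.09% of genes (7.15% of promoters). These are matches of letters, with no account of base composition.

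Among the genes of the mevalonate pathway, the differences ran from -0.24 to 0.05, and 0 of 6 measured genes passed. Hmgcs1, which encodes HMG-CoA synthase, had log2 values of 14.00 and 13.84 on the GFP+ arrays and 13.81 and 13.72 on the GFP- arrays. Its groups did not overlap, but the gap between them was smaller than the distance between the GFP+ arrays. The difference was -0.15 (standard error 0.09, 95% interval -0.40 to 0.09, adjusted p = 0.364 from limma). Its other 4 probe sets also had negative differences, the largest at a dim one with values of 7.84 and 6.29 in GFP+ and 6.36 and 5.43 in GFP- cells. Those values lay far apart within each group, and the difference of -1.17 had an adjusted p of 0.303.

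Idi1, the isomerase that makes the active isoprenoid unit, was the mevalonate gene with the lowest p. It was at 12.76 and 12.77 on the GFP+ arrays and 12.55 and 12.50 on the GFP- arrays. The 2 arrays of each group lay close together, below 0.1 apart, and the groups did not overlap. The difference was -0.24 (standard error 0.07, 95% interval -0.43 to -0.05), with an unadjusted p of 0.0241 and an adjusted p of 0.126 from limma. The other probe set of Idi1 ran the same way, with 11.83 and 11.69 in GFP+ and 11.42 and 11.10 in GFP- cells, a difference of -0.50 (adjusted p = 0.103). Without GFP- replicate 2 the difference of Idi1 was -0.21.

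The intervals of the remaining mevalonate genes all held 0. Mvk, the mevalonate kinase gene, had log2 values of 8.67 and 8.67 in GFP+ and 8.70 and 8.66 in GFP- cells, so that the groups overlapped. Pmvk, the next kinase, had 9.54 and 9.42 in GFP+ and 9.32 and 9.35 in GFP- cells, a difference of -0.14 (adjusted p = 0.337). Mvd, the decarboxylase gene, had 9.68 and 9.42 in GFP+ and 9.50 and 9.37 in GFP- cells, with more distance between replicates than between groups. Fdps, the farnesyl diphosphate synthase gene at the branch toward sterols and prenyl groups, had 11.60 and 11.66 in GFP+ and 11.66 and 11.70 in GFP- cells, a difference of 0.05 (95% interval -0.14 to 0.25).

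From squalene to cholesterol, 0 of 11 genes passed, with 8 negative and 3 positive differences. Fdft1, the squalene synthase gene, differed by 0.06 and Sqle, the squalene epoxidase gene and a control point of the pathway, by 0.02. Sqle was at 11.95 and 11.96 in GFP+ and 12.00 and 11.96 in GFP- cells, and its 95% interval of -0.17 to 0.21 was among the tighter ones. Lss, the lanosterol synthase gene, differed by -0.04 and the lanosterol demethylase gene Cyp51 by -0.10 (adjusted p = 0.478). A second probe set of Cyp51, almost as bright, had 10.82 and 10.62 in GFP+ and 10.48 and 10.17 in GFP- cells, a difference of -0.39 with an unadjusted p of 0.0439 and an adjusted p of 0.176.

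Ebp and Tm7sf2, which act on the sterol ring after the demethylase, had the largest differences of the sterol steps, in opposite directions. Ebp, the isomerase gene, had log2 values of 9.05 and 9.11 on the GFP+ arrays and 9.51 and 9.40 on the GFP- arrays. The groups were well apart relative to the replicates. The difference was 0.38 (standard error 0.08, 95% interval 0.16 to 0.59, 1.30-fold), with an unadjusted p of 0.00721 and an adjusted p of 0.0682 from limma. Ebp passed under 3 of the alternatives, with an adjusted p of 0.0421 when dim probe sets were left out, 0.0152 with an intensity trend and 0.0320 when each gene was the mean of its probe sets. It had 1 probe set.

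Tm7sf2, a sterol reductase gene, had 8.37 and 8.22 in GFP+ and 8.09 and 7.95 in GFP- cells, a difference of -0.27 (95% interval -0.53 to -0.02, adjusted p = 0.170). Within each group replicate 1 was the higher array. The other late enzymes differed less. Nsdhl and Hsd17b7, which act in the removal of methyl groups from the ring, both differed by -0.17, with adjusted p of 0.292 and 0.360, and Msmo1, the methylsterol monooxygenase gene, by -0.06. Dhcr7, whose enzyme makes cholesterol in the last step of one route, had 10.50 and 10.28 in GFP+ and 10.25 and 10.25 in GFP- cells, a difference of -0.14 (adjusted p = 0.441). Sc5d, the desaturase gene before it, differed by -0.04, and a dimmer probe set by -0.23 (adjusted p = 0.151).

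Of the 5 Srebp regulators, 0 passed, and their differences ran from -0.14 to 0.19. Srebf1, which encodes the Srebp1 factors tied mainly to fatty acid synthesis, had log2 values of 10.22 and 10.05 in GFP+ and 10.05 and 9.94 in GFP- cells, a difference of -0.14 (95% interval -0.39 to 0.11). Srebf2, which encodes Srebp2, the main activator of sterol genes, had 10.38 and 10.16 in GFP+ and 10.22 and 10.24 in GFP- cells, a difference of -0.04 (95% interval -0.31 to 0.23). For both genes the GFP+ arrays lay further apart than the group means did. Scap had 10.06 and 9.95 in GFP+ and 10.10 and 9.99 in GFP- cells, a difference of 0.04. The adjusted p-values of these 3 genes were 0.426, 0.853 and 0.843 from limma.

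The Insig genes encode the proteins that hold Scap back. Insig1, itself a known Srebp target, had 10.96 and 10.76 in GFP+ and 10.88 and 10.75 in GFP- cells, a difference of -0.05 (95% interval -0.33 to 0.24, adjusted p = 0.834 from limma). Its groups overlapped, with replicate 1 above replicate 2 in each. Insig2 had 8.78 and 8.84 in GFP+ and 8.96 and 9.04 in GFP- cells, without overlap, and a difference of 0.19 (95% interval -0.01 to 0.39, adjusted p = 0.210). The other 2 probe sets of Insig2 differed by 0.19 and 0.01. Stard4, a cytosolic sterol carrier and also a known Srebp2 target, had 9.91 and 9.74 in GFP+ and 9.94 and 9.84 in GFP- cells, a difference of 0.07 (adjusted p = 0.719), and its other 2 probe sets differed by 0.15 and 0.18.

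Of the 7 genes of fatty acid synthesis, 0 passed, and 6 of them differed by less than 0.1. Acly, whose enzyme makes cytosolic acetyl-CoA from citrate, had log2 values of 12.73 and 12.79 in GFP+ and 12.77 and 12.79 in GFP- cells, a difference of 0.02 (95% interval -0.17 to 0.21). Acaca, the acetyl-CoA carboxylase gene, had 9.84 and 9.78 in GFP+ and 9.92 and 9.82 in GFP- cells, a difference of 0.06. Fasn, the fatty acid synthase gene, had 11.98 and 11.88 in GFP+ and 11.90 and 11.84 in GFP- cells, a difference of -0.06 (95% interval -0.27 to 0.15). The groups of these 3 genes overlapped.

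The desaturase gene Scd2 was the exception in size. It was at 14.14 and 14.07 on the GFP+ arrays and 13.90 and 13.77 on the GFP- arrays, a difference of -0.27 (standard error 0.08, 95% interval -0.49 to -0.05), with an unadjusted p of 0.0267 and an adjusted p of 0.133 from limma. Its groups did not overlap, and its other 2 probe sets differed by 0.09 and -0.25, so they did not share a sign. Scd1, its paralog, had 12.20 and 12.13 in GFP+ and 12.13 and 12.05 in GFP- cells, a difference of -0.08 (adjusted p = 0.598). These paralogs are alike in sequence, and how far their probe sets share signal was not tested.

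The elongase genes differed by less than 0.1 at their brightest probe sets. Elovl5, an elongase of polyunsaturated fatty acids, had 12.16 and 12.20 in GFP+ and 12.11 and 12.08 in GFP- cells, a difference of -0.09. Elovl6, an elongase of saturated fatty acids, had 11.40 and 11.30 in GFP+ and 11.32 and 11.40 in GFP- cells, a difference of 0.01. A dim probe set of Elovl6 stood apart from this, with 6.38 and 6.13 in GFP+ and 5.28 and 5.69 in GFP- cells, a difference of -0.77 (95% interval -1.23 to -0.31, adjusted p = 0.0749 from limma). Its remaining probe set differed by 0.04.

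Across the 69 probe sets, 9 had an unadjusted p under 0.05, 8 of them lower in GFP- cells, beside 26.7% of all probe sets in either direction. Of the 21 members with several probe sets, 11 had probe sets of both signs, and for 9 members a lone probe set gave the value. The probe sets of both signs, from the brightest to the dimmest, differed by 0.02, -0.11, 0.22, -0.26, 0.12 and -0.02 for Acly. They differed by -0.17, -0.18, 0.04 and 0.11 for Hsd17b7. Neither gene had an adjusted p under 0.05 at any of them. Lss had -0.04, -0.13 and 0.12, and Sc5d had -0.04, -0.23 and 0.03. The pairs were 0.05 and -0.02 for Fdps, -0.11 and 0.02 for Mvd, 0.01 and -0.04 for Mvk, -0.08 and 0.07 for Scd1, and -0.04 and 0.03 for Srebf2. Scd2 and Elovl6, given above, were the other members of this kind. Of the 69 probe sets, 10 had a mean below the median of all values on the arrays.

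Genes that neighbour synthesis in the same metabolism were listed separately. The other genes of sterol synthesis and Srebp processing, among them the sterol reductase gene Lbr and the Srebp protease genes Mbtps1 and Mbtps2, also had 0 of 9 measured genes past the threshold, with a median difference of 0.03. The isoprenoid branch, with Ggps1 and the prenyltransferase subunit genes Fnta and Fntb, had 0 of 10, with a median of -0.02. The differences of these genes ran from -0.27 to 0.18.

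Of 14 measured genes of sterol uptake, efflux and storage, 3 were higher and 0 lower in GFP- cells, beside 5.4% of all genes higher. The difference between this list and the synthesis genes was not tested. Abcg1, an exporter of cholesterol, had log2 values of 7.45 and 7.30 in GFP+ and 8.45 and 8.58 in GFP- cells (difference 1.14, 95% interval 0.88 to 1.39, adjusted p = 0.0123 from limma). Mylip, a ubiquitin ligase that lowers lipoprotein receptors, had 6.62 and 6.54 in GFP+ and 7.49 and 7.67 in GFP- cells (95% interval of the difference 0.75 to 1.25, adjusted p = 0.0148). Apoe, which encodes a lipoprotein component, had 9.77 and 9.97 in GFP+ and 10.66 and 10.79 in GFP- cells, a difference of 0.85 (adjusted p = 0.0239). For all 3 genes, the 2 GFP- arrays lay above both GFP+ arrays by more than the replicates differed.

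Other genes of the same list did not pass. The lysosomal sterol exporter gene Npc1 differed by 0.44 (adjusted p = 0.0653) and the exporter gene Abca1, in the other direction, by -0.35 (adjusted p = 0.0757). Abca1 had 7.68 and 7.57 in GFP+ and 7.29 and 7.26 in GFP- cells. Lrp2, a lipoprotein receptor of the forebrain neuroepithelium, differed by -0.51 (adjusted p = 0.0875).

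Among 25 further genes of fatty acid synthesis, elongation and desaturation, 3 passed with higher values in GFP- cells and 1 with lower values. Of all genes, 5.4% were higher and 2.63% lower. Me1, the malic enzyme gene that supplies NADPH, had 9.47 and 9.49 in GFP+ and 10.35 and 10.46 in GFP- cells, a difference of 0.93 (adjusted p = 0.0124 from limma). Mlxipl, which encodes the carbohydrate-responsive factor ChREBP, differed by 0.86 (adjusted p = 0.0245) at a dim probe set. Acacb, the carboxylase isoform tied to mitochondria, had 5.80 and 5.86 in GFP+ and 6.54 and 6.65 in GFP- cells, a difference of 0.76 (adjusted p = 0.0183), beside 0.06 for its cytosolic counterpart Acaca. Averaged over its probe sets, Acacb differed by 0.40. Elovl2, an elongase of long polyunsaturated fatty acids, was lower, with 9.79 and 9.64 in GFP+ and 9.11 and 8.93 in GFP- cells, a difference of -0.70 (adjusted p = 0.0359).

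Of 16 measured genes of fatty acid oxidation, 4 were higher and 0 lower in GFP- cells, beside 5.4% and 2.63% of all genes. The median difference was 0.22, beside 0.05 for all genes. Cpt1a, whose enzyme admits fatty acids to mitochondria, had 6.15 and 6.01 in GFP+ and 6.95 and 7.20 in GFP- cells (95% interval of the difference 0.69 to 1.31, adjusted p = 0.0220 from limma). The dehydrogenase genes Acadl and Acadm differed by 0.79 (adjusted p = 0.0147) and 0.50 (adjusted p = 0.0360), and Hadhb, a subunit of the trifunctional enzyme, by 0.69 (adjusted p = 0.0210). With all probe sets of a gene averaged, the differences were smaller for Acadl (0.41) and Hadhb (0.40). When the replicate number entered the fit as a block, 0 probe sets of the whole table passed. Without either GFP- array 0 probe sets of the whole table passed, these genes included, and without GFP+ replicate 1 Abcg1 alone of the named genes of these 3 lists did. Markers of endoderm (9 of 12 higher), pluripotency (8 of 9), caudal neural cells (5 of 7) and mesoderm and neural crest (2 of 7) also included genes higher in GFP- cells. Rostral forebrain (5 of 6 lower) and pan-neural markers (5 of 7 lower) went the other way. The sterol handling list itself had 9 positive and 5 negative differences. The part of any cell type in the result was not tested.

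**Figure D3:**
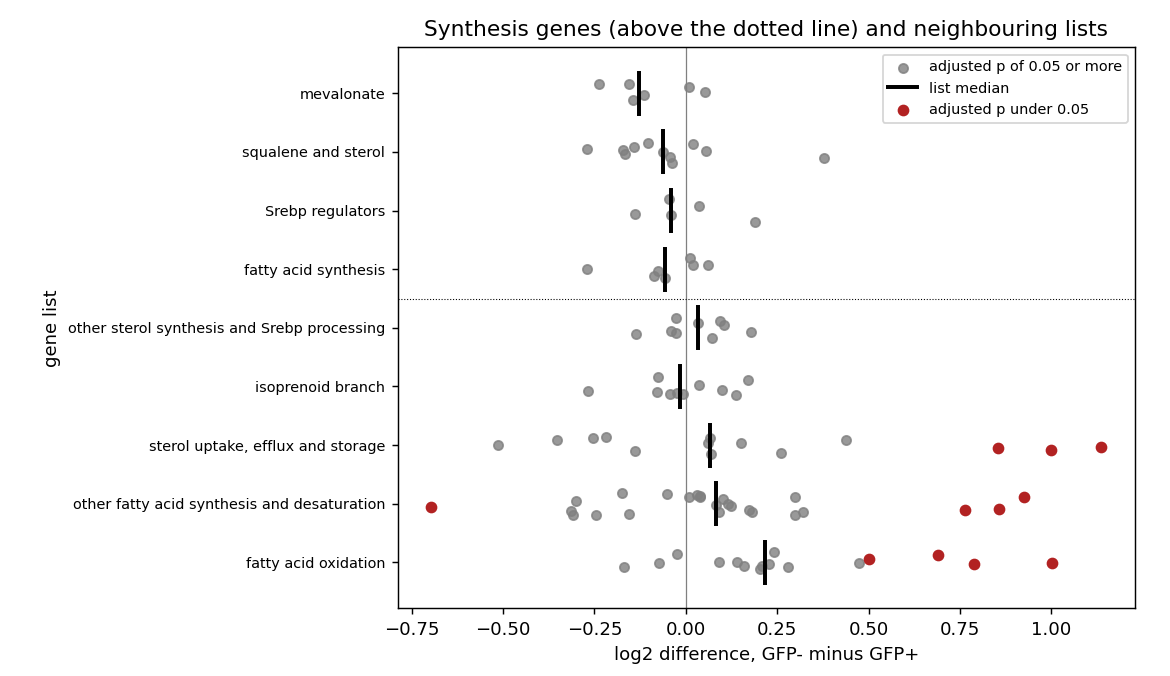
Rows (y axis) are the synthesis genes by step, above the dotted line and without Stard4, and 5 lists of neighbouring genes below it, with the log2 difference, GFP- minus GFP+, on the x axis. Each gene is a circle at its brightest probe set, drawn in red if limma's adjusted p was under 0.05 and in grey if not, and a black bar marks the median of the row. Red circles appear in the lists of uptake and efflux, further fatty acid genes and oxidation.

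The replicates of a group also differed in the synthesis genes. On the GFP+ arrays, 20 of the 30 members were higher on replicate 1 than on replicate 2, with a median difference of 0.10. The share was 44.1% for all genes and 52.9% for the genes with a mean log2 value of at least 8. On the GFP- arrays it was 22 of 30 members, with a median of 0.05, beside 47.7% and 41.3%. For 16 members (53.3%) replicate 1 was the higher array in both groups, compared with 23.4% of all genes and 28.0% of the genes with a mean log2 value of at least 8. Insig1, Msmo1, Fasn, Stard4 and Hmgcs1 were among the 16. For Insig1, the replicates differed by 0.21 in GFP+ and 0.13 in GFP- cells, more than the difference of -0.05 between the groups. Members share their arrays and regulators, so they are not independent of each other here.

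**Figure D4:**
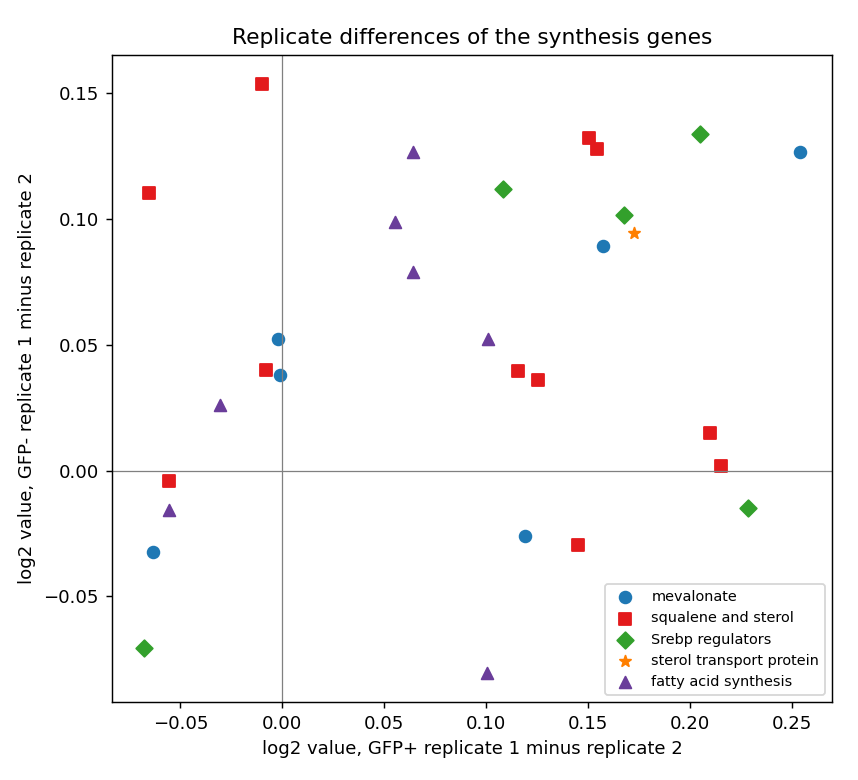
Log2 value on replicate 1 minus replicate 2 for the 30 measured members, in GFP+ cells (x axis) and GFP- cells (y axis), each by its probe set with the highest mean. Symbols are pathway steps; 16 genes lie in the upper right, higher on replicate 1 in both groups, and 4 in the lower left.

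Precision is limited by having 2 arrays in each group, for which the smallest p an exact two-sided permutation can reach is 0.333. No member passed when an array was left out, but without either GFP- array no probe set of the whole table passed, so those fits say nothing about the members. The smallest difference of any probe set that passed was 0.38 in size.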

How the data were processed

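RNA of sorted day-4.5 cells was measured on 4 Affymetrix mouse arrays, as biological duplicates per the study's methods. The authors summarized the arrays by RMA and deposited the log2 values, 1 for each probe set on each array. R 2.13.0 is named in the submitters' processing notes. The method equalizes the distributions of probe intensities between arrays before they are summarized by probe set. Here all 45101 probe sets, the 64 controls included, entered a limma fit (version 3.58.1, R 4.3.3) of 2 groups without a filter or a block, with Benjamini-Hochberg adjustment over all probe sets at 0.05. The fit had 2 residual and 2.52 prior degrees of freedom, on which the 95% intervals rest. Symbols came from the platform annotation (34958 probe sets with 1 symbol, 932 with several, 9211 unnamed here), and all 30 measured member symbols were in the GRCm38.p6 gene table. The fit was also run on simulated data, with added changes larger than any member's difference at its brightest probe set. That run does not address differences of the size seen for the members. By rule, the text names all members, gives the 4 values for the 5 Srebp regulators and for any member past the threshold, gives all probe sets of members whose probe sets differ in sign, and takes from each other list at most 4 genes, those with the largest differences among the genes that passed. The 4 values of further members were added. Lbr, Mbtps1, Mbtps2, Ggps1, Fnta, Fntb, Npc1, Abca1 and Lrp2 were named after their values were seen. Members, lists and motifs were chosen with earlier results of these data known. The alternatives tried were a replicate block, a filter (5 or more on the log2 scale in 2 or more arrays), centring on array medians, quantile normalization, an intensity trend in the variance, averaging a gene's probe sets, leaving out probe sets with shared-sequence suffixes, and leaving out each array. Promoters came from RefSeq (250 bases before to 50 after a start).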

Additional observations from a re-analysis of the deposited data

How the results depend on the processing

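No member passed in either direction with the replicate block, centring, quantile normalization, without shared-sequence probe sets, or when an array was left out, though no probe set at all passed with the block or without either GFP- array. With the filter and with a gene's probe sets averaged, 1 member was higher (Ebp), and with the intensity trend 1 was higher (Ebp) and 2 were lower (Idi1 and Scd2, adjusted p = 0.00862 and 0.0161). Settings changed the sign of at most 6 members, none with a difference over 0.115 in size. The count of all probe sets called was 3367, but 4675 with the filter, 6962 with the trend, 2476 of 18194 genes with the mean, 820 without GFP+ replicate 1, and 0 without either GFP- array or with the replicate block, where 7704, 7697 and 11019 had an unadjusted p under 0.05. Over all 45101 probe sets, deviations of same-numbered arrays had a correlation of -0.05, and the numbers were not taken as pairs. The labels do not say whether same-numbered arrays share an experiment. The paper's methods describe biological duplicates of sorted cells from the pooled aggregates of each experiment, without linking them to array numbers. Among the members, 16 were higher and 4 lower on replicate 1 in both groups, so the correlation does not settle pairing for them. The genes of sterol uptake, efflux and storage higher in GFP- cells (3) were 0 with the block and 0 to 3 when an array was left out, of which 1 without GFP+ replicate 1. The further fatty acid genes (3) were 0 with the block, 5 with the trend, 7 with the mean, and 0 to 3 when an array was left out, with 0 without GFP+ replicate 1. The oxidation genes (4) were 0 with the block, 7 with the trend, and 0 to 1 when an array was left out. Of the named genes that passed, Abcg1 kept its call without GFP+ replicate 1, and the others lost it. The cause of these changes was not tested.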
